A study of Mus musculus with 26 samples.

Results

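Polymorphonuclear cells (PMN), the granulocytes of which neutrophils are the main kind, were sorted from the spleens of tumour-bearing KPC mice, and their RNA was sequenced after treatment of the animals with an inhibitor of phosphoinositide 3-kinase (PI3K) or with vehicle. The comparison rests on 7 of the 26 libraries of the series, chosen by their labels: 4 from mice given GS9820, which the study names a p110δ inhibitor, for 14 days, and 3 from mice given vehicle, for which no day is labelled. The 7 libraries of monocytes sorted from spleens of the same kinds of mice, also 4 treated and 3 vehicle, served to judge the identity of the cells and to compare the treatment difference. KPC is a genetically engineered mouse model of pancreatic cancer in which Cre activates the mutations in the pancreas, and every group carries it, vehicle included. The labels give neither the alleles nor the age of the mice, the dose or the makeup of the vehicle. They mark PMN as "low" and monocytes as "high" without naming the sort marker, and do not say whether a library came from 1 mouse or a pool, or whether PMN and monocytes of 1 number came from 1 mouse. A p-value therefore measures the spread between these libraries, part of which may be technical.

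Neutrophils are made in the marrow, and in tumour-bearing mice also in the spleen, under granulocyte colony-stimulating factor, whose receptor is Csf3r. They carry granules filled in a fixed order during maturation, leave for tissue through the chemokine receptor Cxcr2, and live for a short time. Class I PI3K turns chemoattractant and Fc receptor signals into a membrane lipid that recruits Akt and Rac activators. Leukocytes use chiefly the catalytic subunits p110δ (Pik3cd) and p110γ (Pik3cg). An inhibitor of the enzyme need not alter the RNA of the enzyme itself, so Pik3cd is a reference value here and no check of the labels.

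The values are the authors' deposited log2 values, named log2 RPKM in the files, for 14131 genes per library. Of these, 13968 held a value of at least 0 in at least 3 of the 14 sorted-cell libraries and were tested. Counts and sequencing depth are unknown. The libraries share nearly 1 distribution, so that 3 of the most abundant genes (S100a8, S100a9 and Ngp) hold an identical value in all 7 PMN libraries, and a change in the total RNA of a cell would not be seen. Differences below are the treated mean minus the vehicle mean on this log2 scale, ± the standard error (SE) of limma, always with 3 vehicle and 4 treated libraries. Per-library values are given in the order vehicle 1, 2 and 3, then treated 1, 2, 3 and 4.

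The cells carried the markers of their label. Csf3r stood at 12.45, 12.76 and 12.92 in vehicle and at 12.83, 12.40, 12.92 and 13.02 in treated PMN. In vehicle mice PMN were above monocytes by 3.73 ± 0.19 for Csf3r (limma adjusted p = 5.9e-08), by 5.15 ± 0.72 for Cxcr2 and by 2.51 ± 0.90 for Ly6g, the defining surface antigen of mouse neutrophils (adjusted p = 0.028). The gelatinase Mmp9 stood 4.96 and Retnlg 5.06 higher in PMN, while the differences of the monocyte genes Fn1, F13a1 and Ccr2 were -5.47, -6.22 and -3.47. Monocytes were not free of the granulocyte genes S100a8 and S100a9, which did not pass the test (differences 0.41 ± 0.34 and 0.43 ± 0.27). In that comparison 27.2% of all genes tested passed as higher and 32.8% as lower in PMN.

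Vehicle PMN library 3 stood apart from the other 6 PMN libraries by a rule chosen after the data were seen. In 24 genes it lay at least 2 log2 units from the nearest of the other 6 PMN libraries, which spanned at most 1 unit among themselves. In 6 of these genes it was above the others and in 18 below. Vehicle libraries 1 and 2 had 9 and 5 such genes, treated library 1 had 1 and the other treated libraries had 0. Ifi202b, an interferon-inducible gene of the Ifi200 family, stood at 3.60, 4.07 and -3.32 in vehicle and between 3.68 and 4.20 in the treated PMN. Obox8 stood at 4.72, 5.51 and -2.53 against 5.11 to 5.39, and the aspartic protease gene Ctse at 8.80, 8.71 and 6.47 against 8.65 to 8.85. The same-numbered monocyte library showed the same: 23 of the 24 genes departed the same way in monocyte vehicle library 3, and 20 of them by at least 2 units. Ifi202b was at -1.78 in that library and between 4.59 and 7.29 in the other 6 monocyte libraries. Of the 24 genes, 10 are protein-coding genes with a symbol, and most of the others are pseudogenes. The pseudogene Rpl34-ps1, for example, stood at 7.17, 7.38 and 3.78 in vehicle and between 6.79 and 7.38 in treated PMN. The mean of 34 interferon-stimulated genes was 6.52, 6.39 and 6.98 in vehicle PMN, so it was not low in library 3. What sets these libraries apart was not tested.

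**Figure D1:**
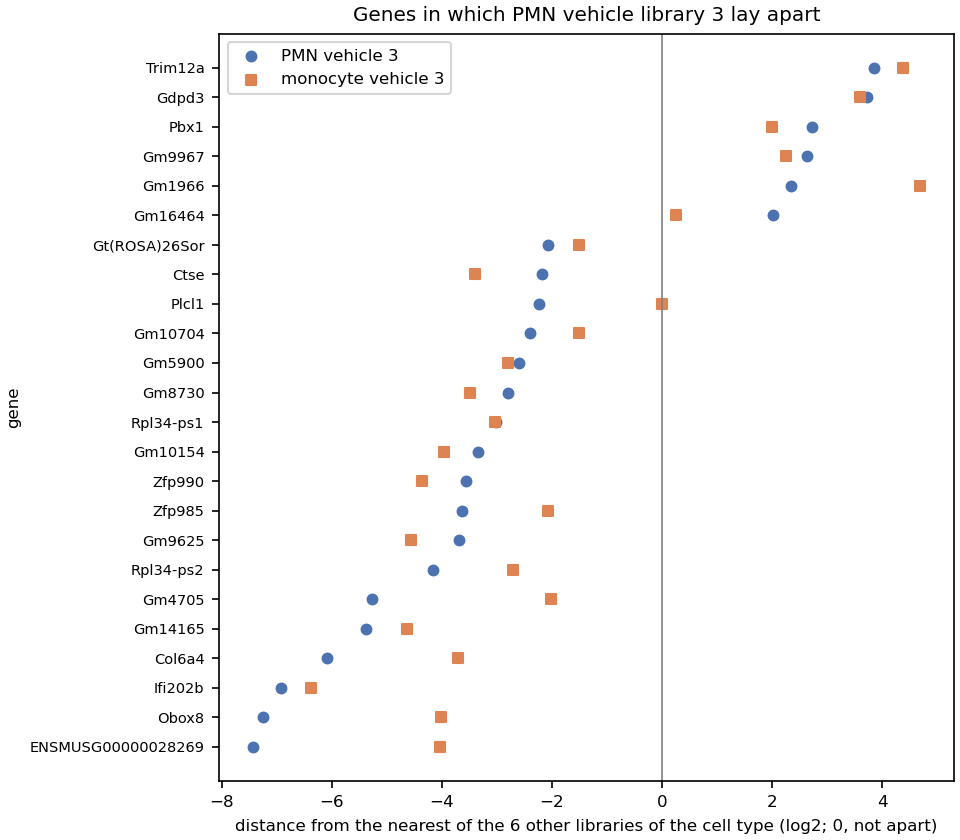
Distance of vehicle library 3 from the nearest of the other 6 libraries of the same cell type (x axis, log2 units, 0 where it is not apart) for the 24 genes (y axis) in which PMN vehicle library 3 lay apart; circles are PMN and squares monocytes. In 23 of the 24 genes the square lies on the same side of 0 as the circle.

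Treated and vehicle PMN were close. Limma called 0 of 13968 genes at an adjusted p under 0.05 (0% of those tested, smallest adjusted p 1), and 430 genes (3.08%) had an unadjusted p under 0.05, 186 of them higher (1.33%) and 244 lower (1.75%) in treated PMN. The groups did not overlap in 249 genes with treated libraries higher (1.78%) and 278 with treated libraries lower (1.99%). These shares are the background against which counts of list members are read below. The median difference over all genes was 0.00389 and the median SE 0.22. For 10151 genes (72.7%) the 95% interval of the difference lay within 2-fold either way, so a larger change was outside the interval for these. A difference of more than 1 log2 unit was seen in 289 genes and of more than 2 in 50.

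The vehicle libraries were less like each other than like the treated ones. Across the genes tested, Pearson correlations were 0.934 to 0.953 among the 3 vehicle libraries, 0.964 to 0.981 among the 4 treated libraries and 0.960 to 0.970 between the groups. The SD was larger in vehicle than in treated PMN for 8433 genes (60.4%), with medians of 0.263 and 0.218. Without vehicle library 3 the count at an unadjusted p under 0.05 was 1036, with 419 higher (3%) and 617 lower (4.42%). Without vehicle library 2 it was 647, with 376 higher (2.69%) and 271 lower (1.94%). Limma called 0 genes in either case, with smallest adjusted p of 0.421 and 0.171.

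Of the 50 gene lists examined, red cell precursor genes had the lowest median in treated against vehicle PMN. Erythroid precursors carry globins, haem enzymes and the band-3 and ankyrin membrane skeleton, and the globins and the membrane skeleton are not neutrophil genes. Of 33 listed genes 26 were tested, and 25 of the 26 lay below 0, with 19 at an unadjusted limma p under 0.05 (1.75% of all genes were lower at that level) and 11 whose groups did not overlap (1.99% of all genes). None passed over all genes. The median difference was -2.33, against 0.00389 over all genes, and the list was drawn up with an earlier finding of this kind in view, so its direction is no independent evidence. In bulk RNA, fewer cells of a type and less of its RNA per cell cannot be told apart.

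Hba-a1, an adult alpha-globin gene, stood at 10.08, 11.72 and 9.66 in vehicle and at 7.44, 9.15, 8.07 and 7.79 in treated PMN. Every vehicle library was above every treated one, and vehicle library 2 was the highest of the 7. The difference was -2.37 ± 0.70. The beta-globin gene Hbb-bs stood at 10.50, 12.05 and 10.10 against 7.72, 9.60, 8.67 and 8.26, a difference of -2.32 ± 0.70. Hba-a2 (-2.37 ± 0.70) and Hbb-bt (-2.33 ± 0.71) are close copies of these genes, so that reads may be shared within each pair and the 4 values are not 4 independent measurements. Bpgm, the red cell enzyme of 2,3-bisphosphoglycerate, stood at 3.16, 4.38 and 3.45 against 2.66, 2.84, 2.97 and 2.73 (-0.86 ± 0.24).

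The regulators and membrane genes of the lineage were also highest in vehicle library 2. Klf1, the erythroid Krüppel-like factor that binds CACCC boxes, stood at 0.51, 3.50 and 1.40 in vehicle and at -2.05, -0.17, 0.14 and -1.51 in treated PMN (-2.70 ± 0.88). Slc4a1, the band-3 anion exchanger, differed by -2.87 ± 1.32. The single member above 0 was Slc25a37, the mitochondrial iron importer (0.18 ± 0.20). It is also abundant in PMN, which stood 1.42 ± 0.21 above monocytes in vehicle mice. The defining markers Alas2 and Ahsp were not analysed here.

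Bases before the start of the 4 globin genes are shown because the differences of their transcripts were so alike. Each run holds the 150 bases upstream of the RefSeq start (GRCm38.p6, sense strand), and capitals mark the matches, on either strand, to 4 short motifs: CCAAT, the CACCC box, GATAA (the GATA factor core) and TATAA.
Hba-a1 (chr11:32283522-32283671, plus strand): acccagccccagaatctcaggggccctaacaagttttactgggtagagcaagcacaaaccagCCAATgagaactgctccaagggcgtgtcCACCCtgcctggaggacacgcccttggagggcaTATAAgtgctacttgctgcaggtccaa
Hbb-bs (chr7:103827929-103828078, minus strand): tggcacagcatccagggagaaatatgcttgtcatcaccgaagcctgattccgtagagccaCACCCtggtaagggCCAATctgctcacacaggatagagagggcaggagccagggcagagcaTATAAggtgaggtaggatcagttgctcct
Hbb-bt (chr7:103813924-103814073, minus strand): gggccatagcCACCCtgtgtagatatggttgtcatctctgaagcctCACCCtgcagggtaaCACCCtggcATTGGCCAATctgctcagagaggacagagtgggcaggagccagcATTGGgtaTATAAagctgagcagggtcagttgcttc
The window of Hba-a2 matched that of Hba-a1 over all 147 of 147 bases once the starts were offset by 3, while the windows of Hbb-bs and Hbb-bt shared 106 of 149 bases (71.1%).

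All of the 4 windows hold CCAAT, the CACCC box and the TATAA motif, and none holds GATAA. Over the first listed promoter of each of 27025 genes, CCAAT was found in 25.3%, CACCC in 36.9%, TATAA in 14.7% and GATAA in 13.6%. Of the erythroid list, 16 of the 26 tested genes had a promoter in the RefSeq table. Of these, 12 (75%) held CACCC, 8 (50%) CCAAT, 7 (43.8%) TATAA and 5 (31.2%) GATAA. These are matches of letters and say nothing of what binds there.

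The size of the erythroid difference depended on vehicle library 2. The erythroid list summed, on a log2 scale, to 12.27, 13.87 and 11.89 in vehicle and to 9.95, 11.47, 10.55 and 10.27 in treated PMN, so the groups did not overlap. Without vehicle library 2 the median of the list was -1.35, 24 of 26 genes lay below 0 and 6 had an unadjusted p under 0.05 (1.94% of all genes were lower at that level in this fit). Without vehicle library 3 the median was -2.72 with 21 such genes (4.42% of all genes). In monocytes the list summed to between 10.19 and 13.14, its median treatment difference was -0.81, and 0 of the 26 genes had an unadjusted p under 0.05 for the difference between the treatment effects in PMN and monocytes (1.93% of all genes did, and 0% after adjustment).

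**Figure D2:**
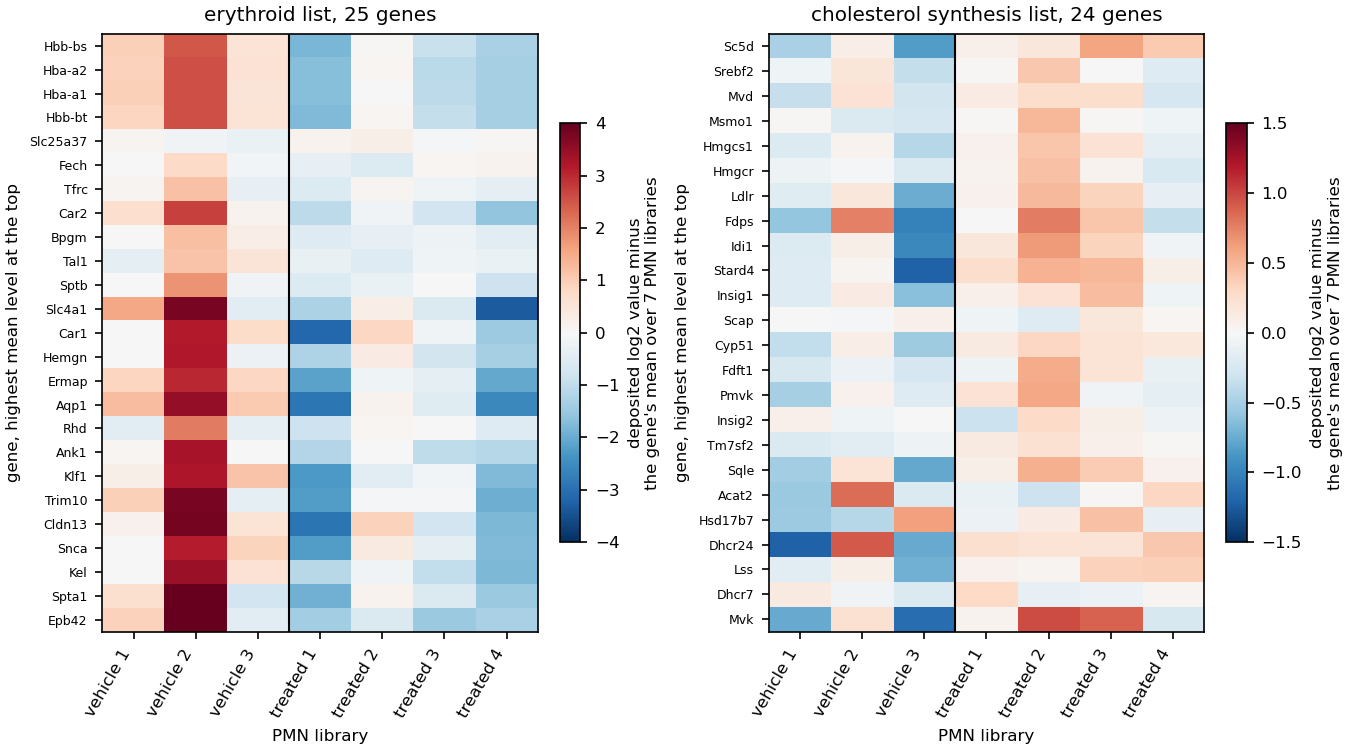
Deposited log2 value minus the gene's mean over the 7 PMN libraries (colour) for 25 of the 26 tested erythroid genes and the 24 tested cholesterol synthesis genes (rows) in each PMN library (columns, vehicle left of the line). Vehicle library 2 is highest for each erythroid gene shown except Slc25a37, and vehicle library 3 is lowest for 15 of 24 cholesterol genes; the 2 panels have different colour ranges.

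Most genes of cholesterol synthesis had a higher mean in treated PMN, though the groups overlapped. Cells raise these enzymes together through the factor Srebf2 when sterol in the membrane is low. Of 24 genes tested 21 lay above 0, 5 had an unadjusted p under 0.05 (1.33% of all genes were higher at that level) and in 3 (Stard4, Cyp51 and Tm7sf2) the groups did not overlap (1.78% of all genes). None passed over all genes, and the median was 0.35 (0.20 in monocytes). The list mean stood at 4.56, 5.0 and 4.41 in vehicle and at 4.93, 5.20, 5.12 and 4.86 in treated PMN, so vehicle library 2 was inside the treated range. Sc5d, the lathosterol desaturase, stood at 6.77, 7.36 and 6.42 in vehicle and at 7.33, 7.43, 7.86 and 7.66 in treated PMN (0.72 ± 0.25), with vehicle library 2 inside the treated range. Mvk, the mevalonate kinase, stood at 1.49, 2.47 and 1.10 against 2.30, 3.22, 3.13 and 2.00 (0.98 ± 0.38).

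Stard4, which carries sterol between membranes, stood at 5.14, 5.37 and 4.12 against 5.59, 5.85, 5.83 and 5.42 (0.80 ± 0.29). All treated libraries were above all vehicle libraries for this gene, the nearest pair by a small margin. Srebf2 itself differed by 0.14 ± 0.17 and Mvd, the diphosphomevalonate decarboxylase, by 0.23 ± 0.16. The 3 genes below 0 were near it: Acat2 (-0.04 ± 0.28), Scap, the sterol-sensing escort of the Srebf2 protein (-0.03 ± 0.11), and Insig2 (-0.01 ± 0.14). Without vehicle library 3 the median was 0.23 and 1 gene was higher at an unadjusted p under 0.05 (3% of all genes), and without vehicle library 2 these were 0.48 and 10 (2.69% of all genes). With the mean of the erythroid list as a covariate they were 0.56 and 11, where 849 genes in all had such a p in either direction. That mean stood at 3.22, 5.51 and 2.99 in vehicle and at 1.29, 2.83, 2.20 and 1.44 in treated PMN. Its groups did not overlap, so in fits with this covariate, here and below, its part and that of treatment cannot be told apart.

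The windows before Mvk and Sc5d are printed because these are the members of largest difference with a promoter in the table. CCAAT, the box of the factor NF-Y, and CACCC are in capitals.
Mvk (chr5:114444119-114444268, plus strand): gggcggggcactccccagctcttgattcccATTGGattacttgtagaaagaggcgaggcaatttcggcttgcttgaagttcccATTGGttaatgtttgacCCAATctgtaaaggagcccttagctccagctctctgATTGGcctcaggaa
Sc5d (chr9:42264301-42264450, minus strand): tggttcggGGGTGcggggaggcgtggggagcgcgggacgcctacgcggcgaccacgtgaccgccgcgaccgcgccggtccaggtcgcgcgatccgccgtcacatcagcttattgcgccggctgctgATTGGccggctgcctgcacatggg
Mvk holds 4 CCAAT boxes in 150 bases and Sc5d holds 1. Of the list, 17 of 24 tested genes had a promoter in the table. Of these, 13 (76.5%) held CCAAT, against 25.3% of all promoters, and 8 (47.1%) held CACCC, against 36.9%. TATAA was held by 1 (5.88%), against 14.7%, and GATAA by 0, against 13.6%. The shares of all promoters include genes that were not tested here. These too are matches of letters and say nothing of what binds there, and their bearing on the treatment difference was not tested.

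No difference was detected in the RNA of the drug's target or of its pathway in PMN. Pik3cd, which encodes p110δ (chromosome 4, 149649168 to 149702571, minus strand), stood at 8.74, 8.92 and 9.11 in vehicle and at 9.05, 8.65, 9.11 and 9.06 in treated PMN. The groups overlapped, and the difference was 0.05 ± 0.20 with a 95% interval of -0.40 to 0.49. Pik3cg, p110γ, differed by -0.10 ± 0.15, Pik3ca by 0.14 ± 0.15 and Pik3cb by 0.12 ± 0.25. Among regulators, the p85α gene Pik3r1 differed by 0.16 ± 0.13, the p101 adaptor of p110γ, Pik3r5, by 0.20 ± 0.17, and the adaptor Pik3ap1 by -0.18 ± 0.15. Of 12 PI3K genes tested 9 lay above 0, 0 had an unadjusted p under 0.05, and all 12 intervals lay within 2-fold. The median was 0.06, and 0.14 with 8 of 12 above 0 and 1 at an unadjusted p under 0.05 (3% of all genes) without vehicle library 3.

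No gene downstream passed either. The list of inositol phosphatases, Akt and mTOR genes had a median of 0.03 over 24 genes with 0 at an unadjusted p under 0.05. Akt1 differed by 0.01 ± 0.11 and Gsk3b, a kinase that Akt restrains, by 0.21 ± 0.11. In 2 genes, 1 each way, the groups did not overlap (1.78% of all genes higher and 1.99% lower): Rptor, the scaffold of mTOR complex 1, stood at 4.22 to 4.33 in vehicle and 4.39 to 4.73 in treated PMN (0.25 ± 0.12), and Phlpp2, an Akt phosphatase, at 2.05 to 2.36 against 1.59 to 1.80 (-0.54 ± 0.28).

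FoxO factors enter the nucleus when Akt is low, and their targets are a readout of the pathway. The FoxO list had a median of 0.05 over 25 genes and 0 at an unadjusted p under 0.05. Ccng2, a cyclin that FoxO induces, stood at 8.67, 8.27 and 8.10 against 8.87, 8.26, 8.74 and 8.93 (0.36 ± 0.19). Insr differed by 0.21 ± 0.16, Gadd45b by 0.24 ± 0.19, Txnip by 0.07 ± 0.36 and Klf2 by -0.00 ± 0.30. The Src and Syk family kinases and adaptors that feed PI3K had a median of 0.01 over 18 genes, and all 18 intervals lay within 2-fold. In 1 of them the groups did not overlap (1.99% of all genes lower): Plcg2, a phospholipase, stood at 8.25 to 8.28 in vehicle and 8.07 to 8.23 in treated PMN (-0.13 ± 0.08).

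Neutrophil identity genes lay on both sides of 0. Of 20 identity genes, 8 lay above 0 and 10 below, with a median of -0.02 and 0 at an unadjusted p under 0.05. The rest held an identical value in all 7 PMN libraries, so their difference was 0. Csf3r differed by 0.09 ± 0.18. Cxcr2 stood at 11.96, 12.15 and 12.35 against 12.40, 12.12, 12.40 and 12.23 (0.13 ± 0.67), and Ly6g at 9.33, 9.28 and 9.74 against 9.48, 10.00, 9.36 and 9.03 (0.02 ± 0.84). The SE of these genes is wide because monocyte libraries, in which the genes vary, share the estimate of spread, and 6 of the 20 intervals lay within 2-fold. Mmp8, the neutrophil collagenase, differed by -0.32 ± 0.49 and the resistin-like Retnlg by -0.60 ± 0.98.

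The granule genes, which order neutrophils by maturity, varied between libraries more than between groups. Azurophil granule genes are made by promyelocytes. Elane, neutrophil elastase, stood at 2.80, 5.45 and 5.07 in vehicle and at 3.98, 4.95, 4.37 and 1.19 in treated PMN (-0.82 ± 0.83), Mpo, myeloperoxidase, at 3.74, 6.33 and 5.58 against 4.97, 5.47, 5.08 and 2.72 (-0.66 ± 0.68), and Ctsg, cathepsin G, at 1.65, 4.82 and 3.53 against 3.22, 3.36, 3.31 and 0.12 (-0.83 ± 0.84). Vehicle library 1 and treated library 4 were the lowest of their group for all 3 genes. These are the 3 of the 10 azurophil genes that lay below 0; the other 7 lay above it, with a median over the list of 0.03 (0.16 without vehicle library 3).

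Specific granule genes, made later, had a median of 0.05 over 13 genes, with Ltf, lactoferrin, at 0.10 ± 0.40 and Camp, the cathelicidin precursor, at 0.34 ± 0.35. Gelatinase and secretory vesicle genes had a median of -0.05 over 12 genes (-0.15 without vehicle library 3 and -0.16 without vehicle library 2), with Itgb2, the β2 integrin, at -0.21 ± 0.12 and Itgam, its CD11b partner, at -0.11 ± 0.17. Genes of dividing precursors had a median of 0.18 (-0.25 in monocytes), and 25 of 32 lay above 0 with 0 at an unadjusted p under 0.05. Mki67 stood at 7.61, 7.22 and 7.41 against 7.60, 7.92, 7.61 and 7.23 (0.18 ± 0.32), and Ube2c, a mitotic ubiquitin enzyme, differed by 0.46 ± 0.41. Without vehicle library 2 the median of the list was 0.06.

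Transcription factors of granulocytes had a median of 0.07 over 19 genes. Cebpd differed by 0.35 ± 0.21, Klf6 by 0.27 ± 0.15, Junb by 0.18 ± 0.24 and Stat3 by 0.13 ± 0.11, while Klf4, which also marks monocytes, differed by -0.61 ± 0.35. Receptors and transducers of colony-stimulating factors with their Socs inhibitors had a median of 0.12 and 18 of 22 above 0, with 0 at an unadjusted p under 0.05. Csf2rb, the shared beta chain, stood at 9.63, 10.08 and 10.14 against 10.26, 10.09, 10.34 and 10.24 (0.28 ± 0.14). Jak2 differed by 0.28 ± 0.21 and Socs3 by 0.36 ± 0.26. The median of this list was 0.00172 without vehicle library 1.

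**Figure D3:**
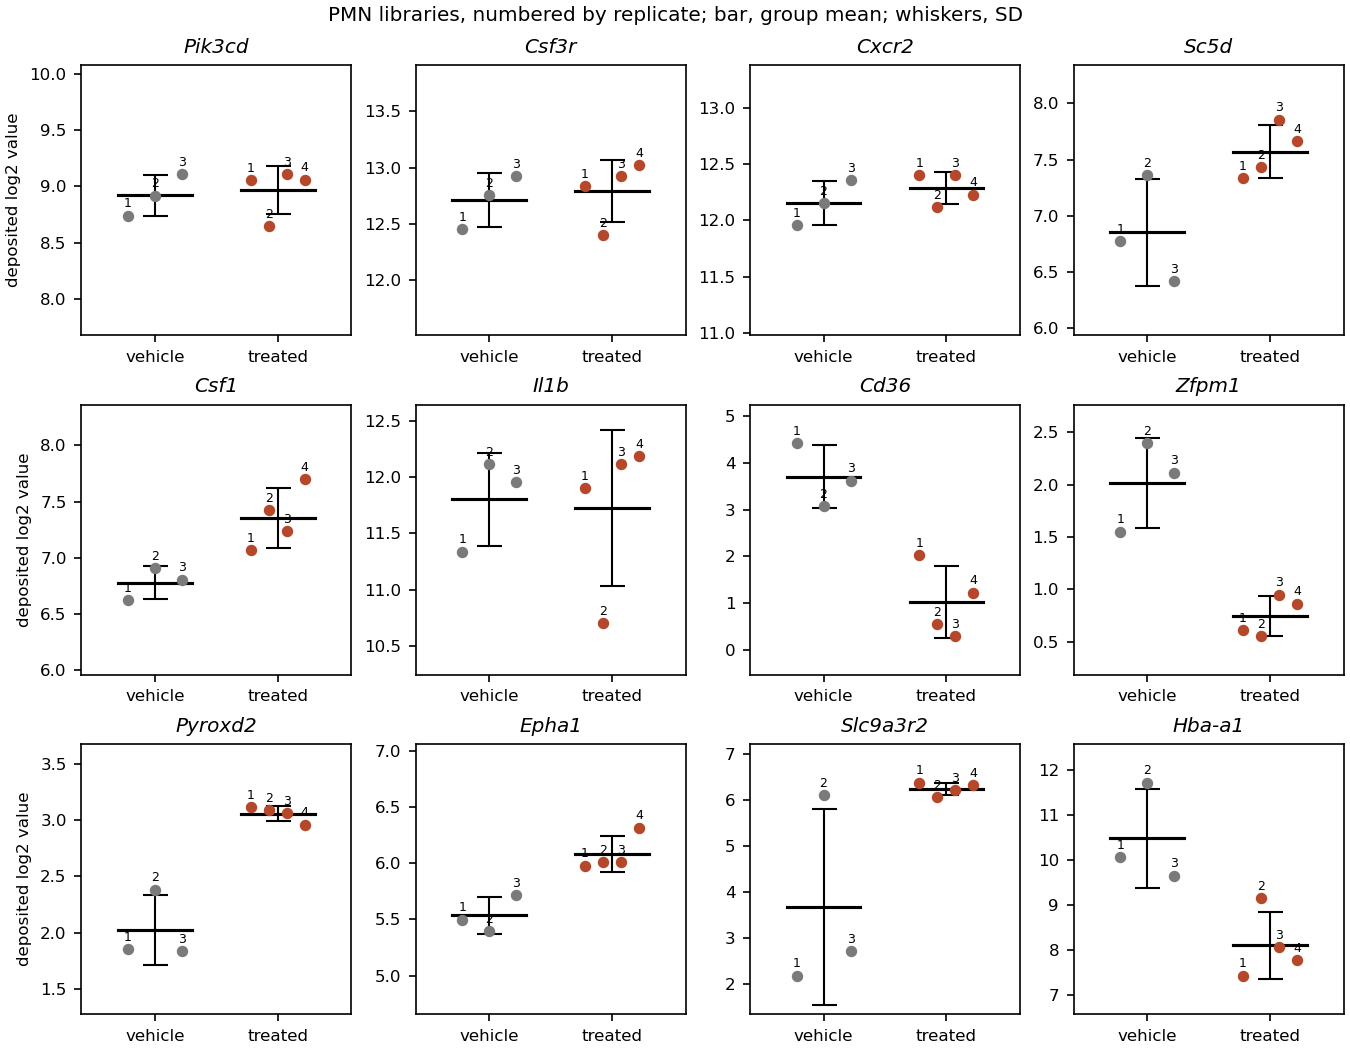
Deposited log2 values (y axis, each panel with its own range) of 12 genes in the 3 vehicle and 4 treated PMN libraries (numbers are replicate numbers; bars are group means and whiskers the SD). Pik3cd, Csf3r, Cxcr2 and Il1b overlap between the groups, while Csf1, Cd36, Zfpm1, Pyroxd2, Epha1 and Hba-a1 do not; in Slc9a3r2 vehicle library 2 sits with the treated libraries.

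Of the cytokine genes, Csf1 had the smallest p. It encodes the growth factor of monocytes and macrophages and stood at 6.62, 6.91 and 6.81 in vehicle and at 7.07, 7.42, 7.24 and 7.70 in treated PMN. All treated libraries were higher (as in 1.78% of all genes), the difference was 0.58 ± 0.20, and in monocytes it was 0.20. PMN held 4.75 ± 0.21 more of Csf1 than monocytes in vehicle mice. Cxcl2, a neutrophil-attracting chemokine, stood at 3.43, 4.51 and 3.62 against 2.73, 4.44, 2.20 and -0.39 (-1.61 ± 0.80), with the spread among treated libraries larger than the difference. Il1b stood at 11.34, 12.12 and 11.96 against 11.90, 10.70, 12.12 and 12.19 (-0.08 ± 0.57). Tnfsf14 differed by 0.42 ± 0.25, and the median over 19 cytokine genes was -0.08.

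Receptors for chemoattractants had a median of 0.09 over 17 genes. The groups did not overlap (1.78% of all genes higher) for P2ry2, the receptor for extracellular ATP and UTP. It stood at 6.20, 5.67 and 6.21 in vehicle and 6.21, 6.27, 6.57 and 6.84 in treated PMN, though the nearest pair was equal at this rounding (0.45 ± 0.22). Ptafr, the platelet-activating factor receptor, differed by 0.33 ± 0.24 and Ccr1 by 0.20 ± 0.34. Adhesion genes had a median of -0.09 over 16 genes. Of these, Cd47 and Pecam1 had an unadjusted limma p under 0.05 (1.33% of all genes higher and 1.75% lower). Cd47, the ligand that restrains phagocytes, differed by 0.23 ± 0.11. Pecam1 stood at 6.66, 3.90 and 4.62 against 4.14, 4.05, 3.59 and 3.79 (-1.17 ± 0.48), where vehicle library 1 alone was far above the rest.

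The effector genes of PMN had medians near 0 with all libraries. NADPH oxidase genes, which make superoxide, had a median of 0.02 over 10 genes, with Ncf4 at 0.29 ± 0.35, Ncf1 at 0.00 ± 0.44 and Rac2 at 0.08 ± 0.30. Fc receptors had a median of -0.04 over 8 genes, and of -0.26 with 6 of 8 below 0 and 1 at an unadjusted p under 0.05 (4.42% of all genes) without vehicle library 3. Fcgr4 stood at 9.49, 7.59 and 7.68 against 7.36, 7.81, 7.58 and 6.90 (-0.84 ± 0.55), with vehicle library 1 highest. Toll-like receptors and adaptors had a median of 0.00 over 16 genes, with Tlr6 at 0.31 ± 0.26, Tlr2 at -0.26 ± 0.24 and Irak2 at -0.25 ± 0.19. Suppressor genes, by which myeloid cells restrain T cells, had a median of 0.07 over 18 genes, with Arg2 at 0.27 ± 0.30 and the prostaglandin synthase Ptges at 0.51 ± 0.43. With all libraries none of these 4 lists had a gene at an unadjusted p under 0.05.

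Interferon-stimulated genes had a median of 0.02 over 34 genes, with 18 above and 16 below 0 and 0 at an unadjusted p under 0.05. The median was 0.14 without vehicle library 3 and -0.09 without vehicle library 2. In 2 of them the groups did not overlap (1.78% of all genes): Oasl1, which restrains Irf7 translation, stood at 6.09, 6.05 and 5.85 against 6.54, 6.17, 6.97 and 6.57 (0.56 ± 0.34), and Stat2 at 6.66 to 6.73 against 6.83 to 7.14 (0.25 ± 0.31). Genes of class I presentation all lay below 0, 13 of 13, with a median of -0.12 and 0 at an unadjusted p under 0.05. H2-K1 differed by -0.38 ± 0.30, B2m by -0.17 ± 0.20, and the peptide-trimming Erap1 by -0.24 ± 0.16 with groups that did not overlap (1.99% of all genes lower). Without vehicle library 3, 9 of the 13 lay below 0 and the median was -0.04, and without vehicle library 2 it was -0.23. With the mean of the erythroid list as a covariate, the median was -0.67 for interferon-stimulated genes. For class I genes it was -0.45, with 4 of 13 lower at an unadjusted p under 0.05. In that fit 849 genes in all had such a p in either direction, and the covariate cannot be told apart from treatment.

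Early response genes pointed both ways. Fosb stood at -0.92, 0.41 and 1.29 in vehicle and at 2.14, 1.01, 0.18 and 3.59 in treated PMN (1.47 ± 0.73), and the median over 18 immediate early genes was 0.06. NF-kB feedback genes had a median of -0.03 over 19 genes, with Zc3h12a, the ribonuclease Regnase-1, at 0.38 ± 0.25 and Dusp1 at -0.43 ± 0.41. Among survival genes (median -0.02 over 21), Mcl1, on which neutrophils depend, differed by 0.16 ± 0.25, Bmf, a death effector, by -0.72 ± 0.44 and Casp9 by -0.14 ± 0.09. Per3, of the clock list (median 0.06 over 17), stood at 1.27, 0.33 and 1.68 against 2.09, 1.55, 2.09 and 1.82 (0.80 ± 0.30). It was the single clock gene with an unadjusted p under 0.05 (1.33% of all genes higher).

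**Figure D4:**
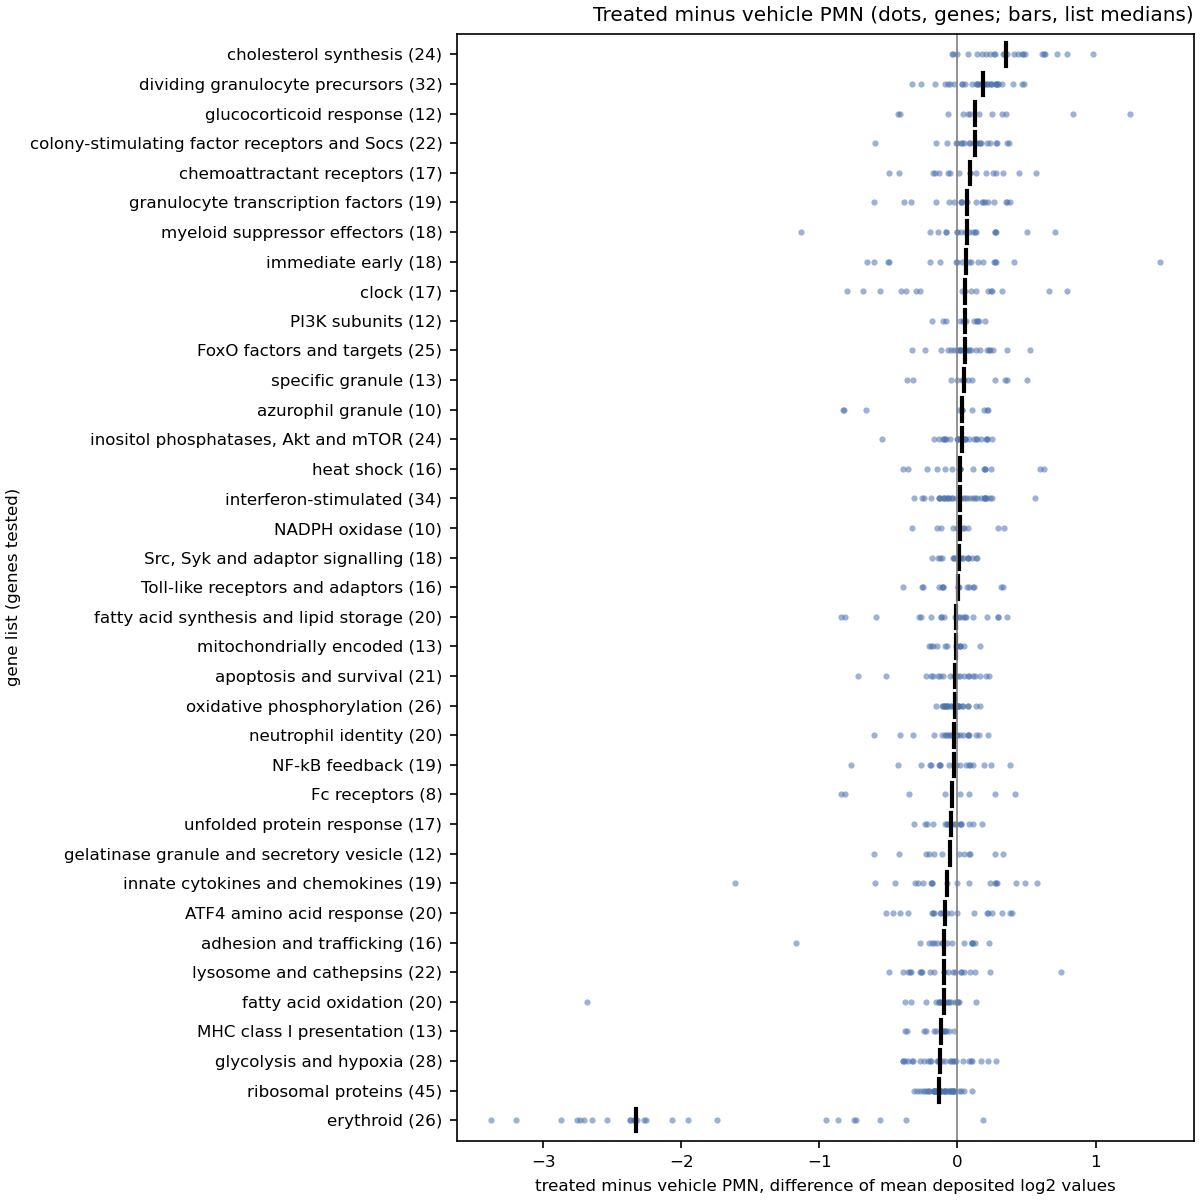
Treated minus vehicle difference of mean deposited log2 values (x axis) for each tested gene (dots) of 37 lists (y axis, with the number of genes tested), with the list median as a black bar. Medians of all lists but the erythroid one lie between -0.13 and 0.35, and the erythroid median is -2.33.

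Of the metabolic lists, the smallest p was that of Cd36, the fatty acid translocase (chromosome 5, 17781690 to 17888801, minus strand). It stood at 4.42, 3.07 and 3.62 in vehicle and at 2.03, 0.55, 0.29 and 1.23 in treated PMN. All vehicle libraries were above all treated ones, by -2.68 ± 0.63, and the difference in monocytes was -0.99. Red pulp macrophages and platelets also carry Cd36, and the macrophage list is given below. The other genes of fatty acid oxidation lay closer to 0, with Hadha at -0.14 ± 0.10 and Hadhb at -0.16 ± 0.12. In Hadhb the groups did not overlap (1.99% of all genes lower). The median was -0.10, and 17 of 20 lay below 0.

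Fatty acid synthesis and storage had a median of -0.01 over 20 genes (-0.12 without vehicle library 3). In 2 of them the groups did not overlap (1.99% of all genes). Acsl5, an acyl-CoA synthetase, stood at 6.70, 6.50 and 6.61 against 6.46, 6.33, 6.27 and 6.25 (-0.28 ± 0.09), and Gpam, the first enzyme of glycerolipid synthesis in mitochondria, at 0.99, 0.93 and 1.11 against 0.49, 0.62, 0.31 and -0.76 (-0.84 ± 0.29). Both had an unadjusted limma p under 0.05 (1.75% of all genes). Glycolysis and hypoxia genes had a median of -0.12 with 21 of 28 below 0, among them Aldoa (-0.38 ± 0.28), Pfkp (-0.36 ± 0.20), Gapdh (-0.19 ± 0.27) and Pkm (-0.14 ± 0.18), and 0 at an unadjusted p under 0.05. With the erythroid mean as a covariate the median of this list was 0.18 with 21 of 28 above 0. Oxidative phosphorylation (median -0.02, 26 of 26 intervals within 2-fold) and mitochondrially encoded genes (-0.01 over 13) had medians near 0 with all libraries. Without vehicle library 3 all 13 mitochondrially encoded genes lay below 0, with a median of -0.25 and 0 at an unadjusted p under 0.05.

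Cytoplasmic ribosomal proteins leaned low, 41 of 45 below 0, with a median of -0.13 (-0.01 in monocytes), 0 at an unadjusted p under 0.05 and 45 of 45 intervals within 2-fold. Rplp1 differed by -0.31 ± 0.19, Rplp0 by -0.24 ± 0.17 and Rps9 by 0.11 ± 0.13. The size of this difference depended on single libraries. The mean of the 45 genes was 8.57, 8.59 and 8.05 in vehicle and 8.19, 8.40, 8.05 and 8.48 in treated PMN. Without library 3 the median was -0.30 with 21 genes lower at an unadjusted p under 0.05 (4.42% of all genes in this fit). Without vehicle library 1 or 2 it was -0.04 or -0.03, and without treated library 3 -0.04 with 34 of 45 below 0, each with 0 such genes.

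Stress responses had medians near 0 with all libraries. Heat shock genes had a median of 0.02 over 16 genes (0.16 without vehicle library 2), with Hsp90ab1 at -0.35 ± 0.19 and Hspa4l at 0.24 ± 0.14. The groups did not overlap (1.78% of all genes higher) for Hspa4l, at 4.66 to 4.92 in vehicle and 4.97 to 5.04 in treated PMN. Unfolded protein response genes had a median of -0.05 over 17 genes (-0.23 with 17 of 17 below 0 without vehicle library 3). ATF4 targets had a median of -0.09 over 20 genes. Ddit3 (CHOP), a stress factor of both responses, stood at 5.86, 6.05 and 6.13 against 6.28, 6.15, 6.39 and 6.52 (0.32 ± 0.13), with no overlap (1.78% of all genes higher). Lysosome and cathepsin genes had a median of -0.10 with 15 of 22 below 0, and glucocorticoid response genes one of 0.13 with 9 of 12 above 0, neither with a gene at an unadjusted p under 0.05.

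Over all genes, inside and outside the lists, the 12 of smallest unadjusted p in each direction were taken, none of which passed adjustment. They were chosen by p in these same libraries, so a lack of overlap between their groups is no further evidence. Pyroxd2, a mitochondrial oxidoreductase (chromosome 19, 42725858 to 42752775, minus strand), had the smallest p. It stood at 1.85, 2.38 and 1.84 in vehicle and at 3.11, 3.09, 3.06 and 2.96 in treated PMN, a difference of 1.03 ± 0.19 (0.29 in monocytes). Camk4, a calcium-dependent kinase, stood at 0.70 to 0.84 against 1.13 to 2.29 (1.11 ± 0.27). Slc36a1, a lysosomal amino acid exporter, stood at 5.08 to 5.18 against 5.46 to 5.75 (0.44 ± 0.12), and its difference in monocytes was 0.52. Epha1, an ephrin receptor, stood at 5.40 to 5.72 against 5.98 to 6.32 (0.54 ± 0.16).

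Slc9a3r2, a scaffold of membrane transporters (chromosome 17, 24639286 to 24650327, minus strand), stood at 2.18, 6.11 and 2.72 in vehicle and at 6.38, 6.06, 6.22 and 6.32 in treated PMN (2.58 ± 0.81). Vehicle library 2 was inside the treated range and the other vehicle libraries were far below it. Cpt1b, the muscle form of the carnitine transferase, differed by 0.59 ± 0.19 and Ctdspl, a small phosphatase, by 0.79 ± 0.26. Zfp983 (0.59 ± 0.16), Zfp54 (0.59 ± 0.19), Zbtb41 (0.73 ± 0.23), Dennd4a (0.55 ± 0.17) and Grik5 (0.83 ± 0.27) complete the 12. The groups did not overlap in 8 of the 12 (1.78% of all genes), the exceptions being Slc9a3r2, Zbtb41, Dennd4a and Grik5.

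In the other direction Zfpm1, the GATA cofactor FOG-1 of red cell and platelet precursors (chromosome 8, 122282141 to 122337251, plus strand), stood at 1.55, 2.40 and 2.12 in vehicle and at 0.61, 0.55, 0.95 and 0.87 in treated PMN (-1.28 ± 0.28). Abcb4, a phospholipid transporter, stood at 1.57, 1.92 and -0.45 against -1.94, -0.70, -2.61 and -1.94 (-2.81 ± 0.67). Adgrl3, a latrophilin, stood at 4.27, 2.73 and 1.90 against -0.10, 0.60, 0.94 and 1.32 (-2.28 ± 0.58). Cyth3, an exchange factor of the small GTPase Arf6 that binds the PI3K product, stood at 4.82, 3.93 and 4.19 against 3.53, 3.24, 3.30 and 3.25 (-0.98 ± 0.24). The groups did not overlap in any of these.

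Rce1, the protease of prenylated proteins, showed little spread, at 4.13, 4.12 and 4.06 against 3.66, 3.74, 3.74 and 3.82 (-0.37 ± 0.10). Timm17a (-0.56 ± 0.16), Bcap29 (-0.65 ± 0.19), Gstt2 (-0.95 ± 0.26) and Nxpe2 (-1.88 ± 0.49) were the others, beside Cd36, Bpgm and Hba-a1 above. All 12, chosen by p, were without overlap (1.99% of all genes). Of the 24 genes, 8 share exon bases with another annotated gene, 6 of them on the opposite strand. The strand setting of these libraries is not stated, so reads of Epha1 and its neighbour Zyx, for example, may not be separable.

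Markers of other cell types differed between PMN libraries, and the lists are given for all 14 types examined in the heat map of marker means. NK and cytotoxic genes, read as the mean of 14 genes, stood at 4.83, 0.81 and 5.94 in vehicle and at 5.04, 2.97, 4.33 and 4.85 in treated PMN. All 14 lay above 0 with a median of 0.45, and without vehicle library 2 all 14 lay below 0 with a median of -1.08. With the erythroid mean as a covariate and all libraries, the median was -2.12. In that fit 11 of the 14 were lower at an unadjusted p under 0.05 (849 of all genes in either direction). Without vehicle library 1 or 3 all 14 lay above 0, with medians of 0.95 and 1.54, and without treated library 1, 2, 3 or 4 the median was 0.18, 0.88, 0.41 or 0.26. Gzma, granzyme A, stood at 6.86, 1.82 and 7.93 against 7.15, 4.52, 6.11 and 6.77 (0.60 ± 1.20). Vehicle library 2, highest in erythroid genes, was thus lowest in NK genes, and monocyte vehicle library 2 was likewise highest of the monocytes in the erythroid mean (4.50) and lowest in the NK mean (-0.09). On the summed log2 level of the NK list, which the most abundant genes set, that monocyte library was second highest (8.08, others 6.73 to 8.12).

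T cell genes had a median of 0.42 with 19 of 20 above 0 (-0.57 with the erythroid mean as a covariate). The median was 0.23 with 12 of 20 above 0 without vehicle library 2, 0.22 without treated library 4 and 0.63 without vehicle library 3. Cd3e stood at 1.84, 0.88 and 2.30 against 2.22, 3.07, 2.55 and 3.10 (1.06 ± 0.74). Red pulp and resident macrophage genes had a median of -0.40 with 16 of 17 below 0. Their mean stood at 5.68, 4.73 and 3.52 in vehicle and at 4.24, 3.77, 4.46 and 3.95 in treated PMN. The complement gene C1qb stood at 7.59, 5.15 and 1.93 against 3.0, 3.64, 4.01 and 3.07 (-1.46 ± 0.93), so vehicle library 1 was highest and vehicle library 3 lowest. Without vehicle library 1 the median of the macrophage list was 0.02, and without vehicle library 3 it was -0.84 with 6 genes lower at an unadjusted p under 0.05 (4.42% of all genes in this fit).

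B cell genes had a median of -0.27 with 14 of 19 below 0, and of -0.06 without vehicle library 1 and -0.42 without vehicle library 2. Cd79a, a chain of the B cell receptor, and Ighm were each highest in vehicle library 1 (6.35 and 11.26) and otherwise at 5.04 to 5.62 and 8.60 to 9.39. Eosinophil genes, which a granulocyte sort may hold, spanned 1.67, 2.91 and 4.87 in vehicle and 5.26, 4.11, 2.32 and 2.29 in treated PMN as a mean of 7 genes, with a median difference of 0.19 (0.86 without vehicle library 3 and -0.24 without vehicle library 1). Prg2, major basic protein, stood at 2.44, 4.00 and 5.84 against 6.16, 5.10, 2.05 and 3.0 (-0.02 ± 1.16). The mast cell and basophil list had a median of 0.49 with 4 of 6 genes above 0 and 2 below (0.14 to 0.66 with libraries left out). Its summed log2 level was 10.15, 9.49 and 10.42 in vehicle and 10.27, 10.76, 9.47 and 9.35 in treated PMN. The basophil protease Mcpt8, its member of largest difference, stood at -1.0, 2.44 and -1.03 against 1.94, 2.48, 1.58 and 0.70 (1.54 ± 0.75). Monocyte genes averaged 5.18 to 6.11 in PMN and 6.48 to 8.42 in monocytes, with a treatment median of -0.16 in PMN (-0.33 without vehicle library 3 and -0.04 without vehicle library 1). Platelet, plasma cell, class II, stem cell and tumour epithelium lists had medians of 0.05, -0.05, -0.10, -0.26 and 0.21, and each of these medians changed sign when 1 of the vehicle libraries was left out.

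None of the 14 lists had a gene past the adjusted threshold. Apart from the erythroid list, genes at an unadjusted p under 0.05 were found only in the stroma and endothelium list, of which 5 genes were tested: Pecam1 (above) and Kdr, at 2.48, 2.06 and -0.40 against 4.37, 1.24, 4.09 and 4.69 (2.22 ± 0.87). Over all genes 1.33% were higher and 1.75% lower at that level. The summed log2 level of each list overlapped between vehicle and treated PMN except for the erythroid list. The part that these cells or their RNA play in the differences of PMN genes was not tested.

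**Figure D5:**
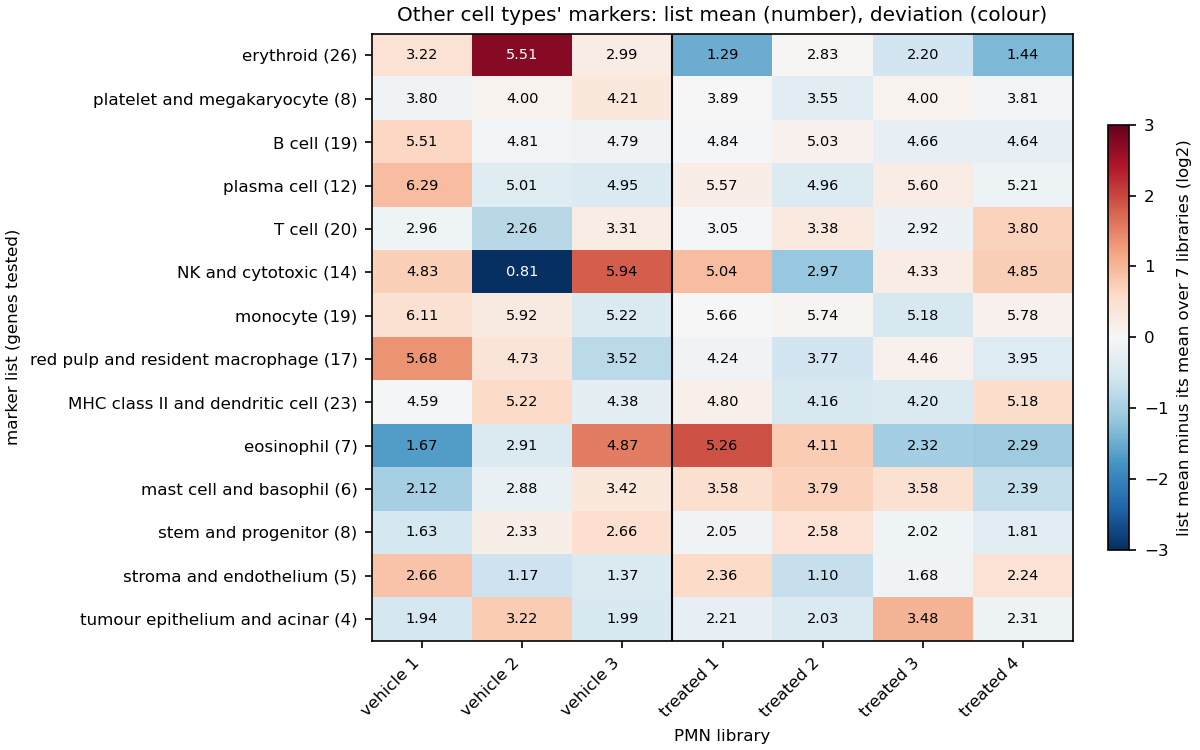
Mean deposited log2 value of each marker list (rows, with the number of genes tested) in each PMN library (columns, vehicle left of the line), printed as a number; colour is the deviation from the list's mean over the 7 libraries. Vehicle library 2 holds the highest erythroid mean (5.51) and the lowest NK mean (0.81).

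The genes of largest spread within the groups turned mostly on vehicle libraries 2 and 3. Of the 12 named by SD after the group means were removed, Gzmb, Klra8 and Adamts14 were lowest in vehicle library 2 (-1.11, -2.13 and -2.64, against 2.40 to 6.23, 1.35 to 5.03 and 1.29 to 4.57 in the others). Itln1, Obox8 and Ifi202b were lowest in vehicle library 3, and Ccn3 was lowest there (-1.59) and highest in vehicle library 2 (9.50). Car4 (6.59) and Hbegf (5.83) were also highest in vehicle library 2. Ear1, an eosinophil ribonuclease, stood at -1.68, 0.35 and 3.90 against 4.54, 3.37, -0.81 and 0.42. Magi1 spanned -2.10 to 4.14 in vehicle and -3.02 to 6.16 in treated PMN, and Fabp4, a fatty acid carrier, -2.61 to 5.03 and -2.33 to 1.17.

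The treatment difference in PMN was compared with that in monocytes by the difference of the effects. Limma called 0 genes (0%; 269 or 1.93% at an unadjusted p under 0.05), and in monocytes alone 0 (335 or 2.4%). This fit took the 14 libraries as independent, since the labels do not pair PMN with monocytes. With PMN and monocytes of the same treatment and number as a block, limma also called 0 genes for the difference of effects (smallest adjusted p 0.974). The 6 genes of smallest p whose treatment difference was larger in PMN than in monocytes were St3gal2, Plscr2, Prr7, Lars2, Oxr1 and Amdhd2. The PMN difference alone was 0.06 ± 0.11 for St3gal2, 0.10 ± 0.10 for Oxr1, 0.33 ± 0.21 for Prr7 and 1.31 ± 0.47 for Plscr2. Lars2, the mitochondrial leucyl-tRNA synthetase, stood at 8.11, 7.79 and 7.93 in vehicle and at 9.04, 9.05, 9.10 and 8.02 in treated PMN, a difference of 0.86 ± 0.29 against -0.47 in monocytes. Treated library 4 was within the vehicle range for this gene. Amdhd2 differed by 0.30 ± 0.11 in PMN, without overlap, and by -0.18 in monocytes.

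In the other direction stood Fgfr2, Stac2, Icosl, Mmp14 and Acsl5, among others. The PMN difference alone was -0.45 ± 0.19 for Fgfr2, -0.75 ± 0.37 for Stac2 and -0.08 ± 0.14 for Icosl. Mmp14, a membrane-bound metalloproteinase, stood at 2.51, 1.89 and 1.56 against 1.30, 0.18, 0.98 and 0.80 (-1.17 ± 0.40) and by 0.48 in monocytes. Acsl5 differed by 0.10 in monocytes.

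Leaving out vehicle library 3 of both cell types, an alternative chosen after seeing the data, changed this comparison. Limma then called 8 genes (0.0573%; 2791 or 20% at an unadjusted p under 0.05), with a smallest adjusted p of 0.0317, while PMN alone had 0 called, 610 higher (4.37%) and 786 lower (5.63%) at an unadjusted p under 0.05. Ptprs, a receptor phosphatase, stood at 3.57, 3.26 and 1.68 in vehicle and at 2.15, 1.90, 1.93 and 1.64 in treated PMN, and at 2.43, 2.98 and 4.22 against 3.46, 3.45, 3.60 and 3.35 in monocytes. Vehicle library 3 lay with the treated PMN, and above the treated monocytes. The difference of effects was -2.27 ± 0.29 without library 3 and -1.18 with it.

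Among the others, Lgmn, the lysosomal legumain, gave -2.06 ± 0.27, and Cd2ap, Shtn1, Gsto1 and Rhoq -2.0, -1.92, -1.42 and -1.82. Atp8a2, a lipid flippase, was the single gene above 0 (3.35 ± 0.44, and 2.10 with all libraries). In each of the 8 genes the call rested on 2 vehicle libraries per cell type, and with all libraries none passed.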

How the data were processed

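RNA of 14 sorted-cell libraries (7 PMN, 7 monocyte) was analysed from the authors' deposited log2 values, named log2 RPKM per the file headers; nothing was aligned or counted anew. The submitters' processing notes name TopHat2, STAR, limma and mm10, without versions or roles. Per the labels, sorted pellets were extracted with RNeasy, made into libraries with either of 2 kits (unassigned to libraries) and run in 4 lanes of a HiSeq2000 as 100 bp paired ends. Per-library depth and counts are unknown, so tests on counts, intervals from counts and detection limits were not computed, and precision is given by replicate spread.

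Gene symbols and positions come from GENCODE M21 (GRCm38), which matched 13886 of 14131 gene identifiers, and promoters from RefSeq (GRCm38.p6). No gene of chromosome X or Y was analysed here. Genes with a value of at least 0 in at least 3 of 14 libraries were fitted with limma 3.58.1 in R 4.3.3 (lmFit, eBayes with mean trend, two-sided, 10 residual degrees of freedom before moderation) as 4 groups, with Benjamini-Hochberg adjustment over all 13968 genes and a threshold of 0.05. The 50 gene lists (14 of other cell types), the members and the tests were chosen with earlier results of these data known. Lists are described by counts and medians only.

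Genes named are the 12 of smallest unadjusted p each way, for each list up to 3 of smallest p and the 3 of highest mean, Csf3r, Cxcr2, Ly6g and 4 PI3K catalytic genes, the 12 of largest spread, and 6 each way for the difference of effects. Named after their values were seen were list members that stood as exceptions or without overlap (Acat2, Cyp51, Hbb-bt, Insig2, Scap, Slc25a37, Tm7sf2), Zyx, and the genes of vehicle library 3 with the 8 called without it. The pipeline was tested on simulated data. Figures used matplotlib 3.10.9 in Python 3.11.15 with pandas 2.3.3 and numpy 2.4.6. Alternatives covered filters, a pseudocount of 1 on the linear scale, centring, quantile normalization, variance models, array weights, PMN libraries alone, an erythroid covariate, replicate blocks and each PMN library left out. A few genes that these rules take are not reported here.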

Additional observations from a re-analysis of the deposited data

Results flagged for a closer look

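In 219 sets of the 4 treated PMN libraries (list means and named genes), 18 held 1 library whose gap to the nearest of the others was a larger part of the whole range than Dixon's 95% value allows; chance flags about 1 in 20. Treated library 2 was low in the mean of the PI3K subunits (6.52, others 6.71 to 6.72), in Pik3cd (8.65, others 9.05 to 9.11), in Junb (10.79), in Irak2 (5.56) and in Erap1 (4.22), and high in the mean of the glucocorticoid response genes (7.40, others 6.64 to 6.72). Treated library 4 was high in the mean of the FoxO genes (6.60), of the clock genes (3.31), in Bcap29 (2.60) and in Epha1 (6.32), and low in the mast cell and basophil mean (2.39, others 3.58 to 3.79), in Lars2 (8.02) and in Ctsg (0.12, others 3.22 to 3.36). Treated library 3 was high in the mean of the phosphatase, Akt and mTOR genes (6.09), of the suppressor genes (7.33) and in Cpt1b (3.72), and low in Ifi202b (3.68). Treated library 1 was low in the mean of the lysosome genes (6.72, others 6.80 to 6.82). Several of these gaps are small in absolute size, and no cause was tested.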

How the results depend on the processing

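Across 20 alternatives limma called 0 genes between treated and vehicle PMN, with smallest adjusted p of 0.108 to 1. The count at an unadjusted p under 0.05 was 430. It was 989 with array weights (whose estimation gave a convergence warning), 849 with the erythroid mean as a covariate, and 1396 without vehicle library 3 of both cell types. The array weight of monocyte vehicle library 1 was 2.5e-06, against 1.49 to 6.27 in the PMN libraries, so that fit in effect left it out. Leaving out libraries gave 335 to 1396 (647 without PMN vehicle library 2, 1036 without PMN vehicle library 3). The difference of effects between PMN and monocytes was 0 to 8 genes, with 8 only when vehicle library 3 of both cell types was left out. The erythroid median of -2.33 was -2.72 to -1.35 with libraries left out and 0.0227 with the erythroid mean as a covariate, by construction. The cholesterol median of 0.35 was 0.23 to 0.48 with libraries left out. Of the 24 genes of smallest p, 0 changed sign. These were chosen by p from the same libraries, so that count is no independent evidence. Of 145 other named genes, 43 took the opposite sign under some alternative, 5 of which had a difference above its SE.

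Replicate numbers shared by vehicle and treated PMN did not pair the libraries: same-numbered libraries deviated together with r of 0.02, 0.05 and 0.03, and not every library correlated best with its own number. With the replicate block the unadjusted count was 479, or 451 in PMN alone. PMN and monocytes of 1 number correlated at -0.22 to 0.46, and treated PMN libraries 1 and 2 correlated best with monocyte treated libraries 2 (0.21) and 1 (0.41). Every vehicle PMN library (0.46, 0.28 and 0.09) and treated PMN libraries 3 and 4 (0.27 and 0.45) correlated best with the monocytes of their own number. Whether PMN and monocytes of 1 number came from 1 mouse was not tested. Depth is unknown, so its limits could not be measured.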
